A study of Mus musculus with 34 samples.

Results

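The genes described here are 32 mouse genes of sterol and fatty acid synthesis: 17 enzymes of cholesterol synthesis, 11 enzymes of fatty acid synthesis, desaturation and elongation, and 4 regulators. They were chosen by name from textbook pathways, with no measured value in the rule but with earlier results of these data known. They make up 32 of the 18194 named genes on the arrays used. They carry 73 of 45265 probe sets, of which 60 are on the MOE430A and 13 on the MOE430B array. Each gene was summarised by its brightest probe set, and all 32 of these passed the filter on dim probe sets.

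Expression was measured on these Affymetrix arrays in RNA from C2 and D4, a pair of embryonic stem (ES) cell lines made from C57BL/6 blastocysts. Early-passage cells (6 RNAs, 3 per line) grew in DMEM with 15% fetal bovine serum, and are labelled as giving low chimerism without germline transmission. The medium of the late-passage cells is named Thromb-XTX-WES, a name for which the labels give no base medium or serum content; these cells are labelled as giving high chimerism with germline transmission. Late RNAs carry the further label attached (3 per line) or detached (3 for C2 and 2 for D4), with no statement of the surface meant. The labels list the same supplements for both media, added to bases of which that of the late medium is not described: LIF, pyruvate, non-essential amino acids, beta-mercaptoethanol and glutamine. Cells were kept at 5% CO2 and 37 C. Effects of passage, of the medium and of whatever set chimerism cannot be told apart. Mouse embryonic fibroblasts served as feeders in all groups, and light trypsin treatment was meant to leave them behind. The labels then describe plating the suspension on a fresh dish for 1 hour, as part of how purity was judged, and put it at about 90% or, for early D4, above that. Nothing in the labels says that replicate RNAs stem from different cultures, and the p-values therefore cover just the scatter among the RNAs, possibly a technical one.

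Cholesterol is built from acetyl-CoA through mevalonate, squalene and lanosterol, and the same acetyl-CoA feeds the building of fatty acids. SREBP transcription factors, encoded by Srebf1 and Srebf2, switch on most of these enzymes when sterols in the membrane of the endoplasmic reticulum run low. Scap escorts SREBP towards the Golgi for cleavage, and Insig1 holds both back when sterols are plentiful. Serum brings lipoprotein cholesterol and fatty acids to cultured cells, so a change of medium is a classical setting in which the activity of this programme is asked about.

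Promoters of the genes were examined for the DNA motifs that SREBP and its usual partners read. RefSeq promoter windows on GRCm38.p6, each 300 bases long around a gene's start, matched 26 of the 32 genes. Scd1, Scd2, Sqle, Fdps, Fdft1 and Fads1 were not matched. The windows below are those of Hmgcs1, the matched gene with the sterol element core TCACNCCAC, of Nsdhl, the gene with the smallest adjusted p-value for late against early passage, and of Fasn, the central fatty acid enzyme. They lie at chr13:119690101-119690400 on the plus strand, chrX:72918271-72918570 on the plus strand and chr11:120824498-120824797 on the minus strand. Capitals mark matches, on either strand, to the sterol element core, CCAAT (the NF-Y motif), GGGCGG (the Sp1 GC box) or CACGTG (an E-box).

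Hmgcs1: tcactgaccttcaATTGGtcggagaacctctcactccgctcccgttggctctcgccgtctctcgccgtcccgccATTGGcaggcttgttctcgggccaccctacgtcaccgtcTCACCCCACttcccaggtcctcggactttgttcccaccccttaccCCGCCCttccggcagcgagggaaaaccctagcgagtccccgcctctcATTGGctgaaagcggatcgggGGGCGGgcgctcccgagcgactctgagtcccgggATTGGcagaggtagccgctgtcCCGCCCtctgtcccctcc
Nsdhl: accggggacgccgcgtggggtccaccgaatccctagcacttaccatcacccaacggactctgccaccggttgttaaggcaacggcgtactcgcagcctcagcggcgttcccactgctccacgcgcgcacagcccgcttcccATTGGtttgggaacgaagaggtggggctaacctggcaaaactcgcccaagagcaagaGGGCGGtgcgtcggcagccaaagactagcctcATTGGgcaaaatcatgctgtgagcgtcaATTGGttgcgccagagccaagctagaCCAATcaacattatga
Fasn: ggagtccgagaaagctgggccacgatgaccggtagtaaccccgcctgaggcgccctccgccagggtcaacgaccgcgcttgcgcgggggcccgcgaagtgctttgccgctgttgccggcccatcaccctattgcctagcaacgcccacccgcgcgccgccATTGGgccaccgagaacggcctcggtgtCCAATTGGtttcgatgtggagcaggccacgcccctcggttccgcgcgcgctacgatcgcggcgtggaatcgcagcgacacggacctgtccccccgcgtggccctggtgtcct

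The sterol element core was found in 1 of 26 matched genes (3.85%), in Hmgcs1 from base 114 of its window, against 1.44% of 27025 genes with a window. Exact matches alone were counted, so sequences close to the core were missed, and genes without a window were not read. CCAAT was found in 22 of the 26 genes (84.6%), against 41.1% of all genes. The GC box was found in 21 (80.8%), against 38.2%, and CACGTG in 6 (23.1%), against 8.09%. Matches can share bases, as forward and reverse CCAAT matches do in Fasn, and capitals then run together. A gene with several windows was counted if any of them matched. These shares describe letters in the windows and say nothing on whether a factor was bound.

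Values are given as log2(signal + 16), where 1 unit is 2-fold for a bright probe set, and changes are late minus early unless said. The late value gives attached and detached cells equal weight and averages both lines. Taken over the 32 genes, the mean level per RNA was 11.29 to 11.58 in the 6 early RNAs and 11.27 to 11.55 in the 11 late RNAs. The 17 sterol enzymes averaged 10.89 to 11.30 early and 10.92 to 11.24 late, and the 11 fatty acid enzymes 11.80 to 12.04 early and 11.75 to 12.16 late. The early and late ranges overlapped for each set, so neither set of enzymes stood apart as a whole between passages and media. Of the fatty acid enzymes, the 6 of desaturation and elongation averaged 11.69 to 12.04 early. They averaged 12.15 to 12.29 in detached C2 and 12.12 to 12.25 in detached D4, above the early range. Attached RNAs, at 11.57 to 12.20 in C2 and 11.86 to 12.19 in D4, overlapped it. The other sets of enzymes and the regulators overlapped between detached and early RNAs. This difference between sets was not tested.

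The change of medium came with a change in feeder RNA. Of 18 tested feeder fibroblast markers (21 were on the arrays), 12 were called as lower late, where 1.59% of all probe sets were called. The median change of the 18 was -1.58. The mean level of all 21 was 11.05 to 12.06 in early RNAs and 9.06 to 10.96 in late RNAs, with no overlap. Not called were Col6a1 (-1.54), Col6a2 (-0.55), Fn1 (-0.52), Twist2 (-0.49), Sparc (-0.315) and Dcn (0.09). Detached minus early had a median of -2.54 with 15 called (2.23% of all probe sets were). For attached minus early it was -0.64 with 3 called (0.0922%), and for detached minus attached -1.47 with 6 called (0.217%). The fall was thus larger in detached cells. Prrx1, Lum and Twist1 did not pass the filter. Collagen genes Col1a1 and Col1a2 and the contractile gene Acta2 were among the 12. Of 10 ES cell markers, Sox2 alone was called, as higher late (0.71, SE 0.159, adjusted p = 0.0269). Early ES marker levels were 12.76 to 13.61 and late ones 13.19 to 13.74. Of 9 tested endoderm markers, Cubn, Dab2 and Lama1 were called as higher late (changes of 2.83, 1.16 and 1.11). The others were not called and went both ways: Gata4 (0.42), Foxa2 (0.29), Sox17 (0.002), Sox7 (-0.11), Lamb1 (-0.28) and Col4a1 (-0.40). Afp did not pass the filter. The mean level of the whole list was 9.04 to 9.52 early and 9.52 to 10.30 late. Fibroblasts express sterol and fatty acid enzymes too, light trypsin treatment was meant to leave them behind, and the part of these shifts in the members' values was not tested. In RNA from mixed cells, fewer cells of a type and less RNA per cell cannot be told apart.

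**Figure D1:**
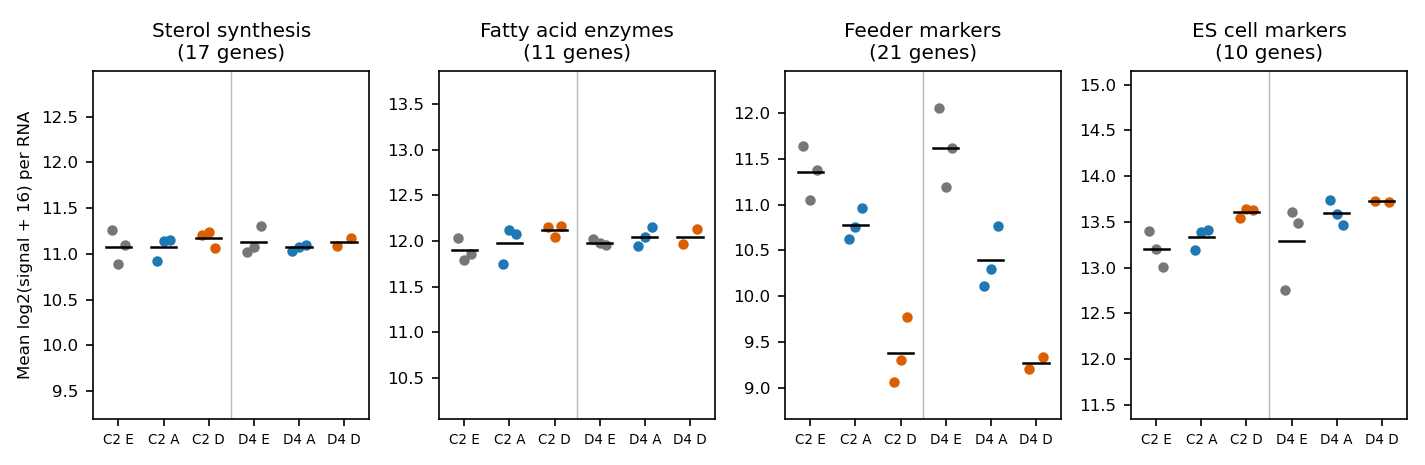
Mean log2(signal + 16) per RNA (y axis, each panel spanning the same number of units) for the sterol enzymes, the fatty acid enzymes, the feeder markers and the ES cell markers, in early (E), late attached (A) and late detached (D) RNAs of C2 and D4; points are RNAs and bars are group means. The sterol enzymes stay between 10.89 and 11.30 in all groups while the feeder markers span 9.06 to 12.06.

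Late against early passage asked whether these genes changed with passage and medium. None of the 32 was called at an adjusted p under 0.05 (limma with Benjamini-Hochberg adjustment over all probe sets of the array type), where 1.59% of all 30373 tested probe sets were. Counted by the brightest probe set of each gene, as the members are, 1.86% of 14060 genes were called. Shares of all probe sets count every tested probe set instead. At an unadjusted p under 0.05 there were 5 of the 32 (15.6%): Nsdhl, Scd1, Scd2 and Fasn higher and Me1 lower, against 13.9% of all probe sets. Changes were positive for 17 genes and negative for 15, with a median of 0.02 against -0.02 over all 14060 genes tested. The 95% interval lay within 2-fold either way for 31 of the 32 genes and within 1.5-fold for 22. The exception to the first was Mvk, mevalonate kinase, whose interval ran from -0.27 to 1.33. No gene had late RNAs entirely above or below the early RNAs, a separation seen in 0.369% of all probe sets.

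**Figure D2:**
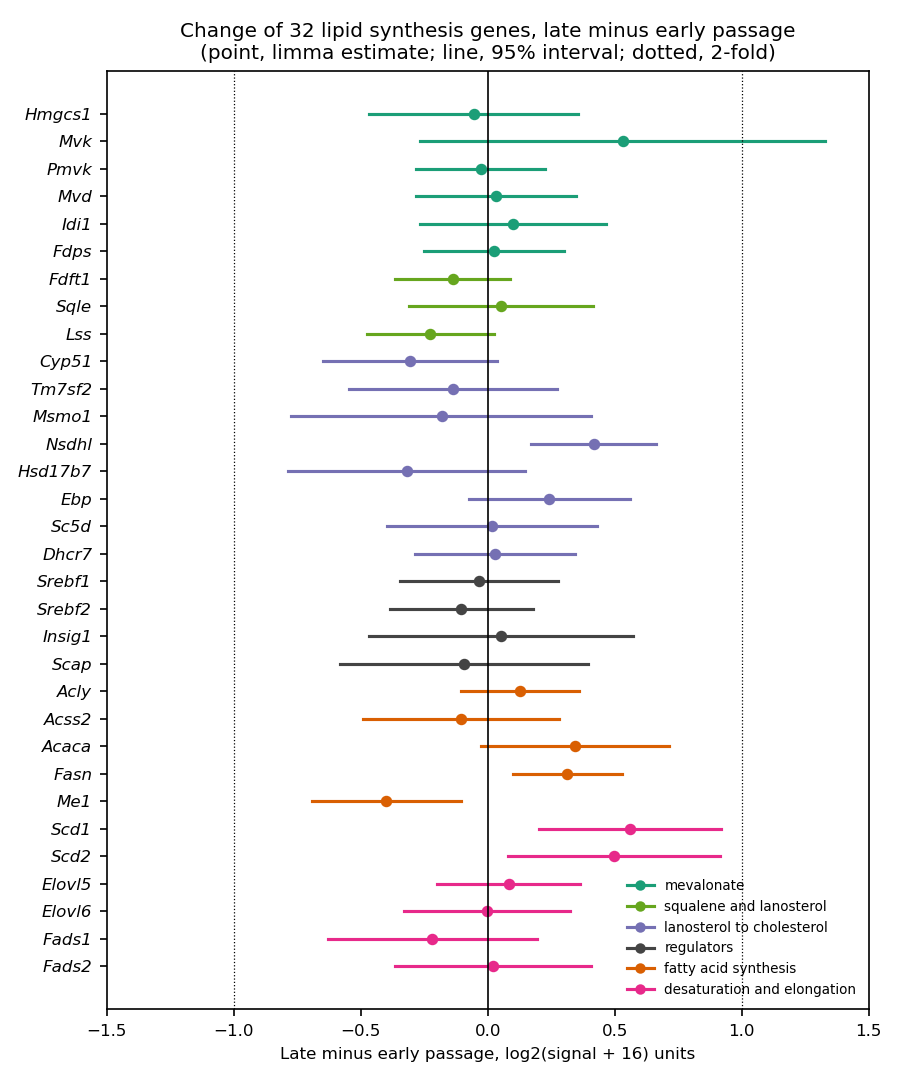
Late minus early passage in log2(signal + 16) units (x axis) for each of the 32 genes (y axis, coloured by role); points are limma estimates, lines their 95% intervals, and dotted lines mark 2-fold. The intervals of Nsdhl, Scd1, Scd2, Fasn and Me1 leave out 0, and Mvk alone reaches past 2-fold.

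The mevalonate enzymes gave no called change in 6 genes. Hmgcs1, the HMG-CoA synthase that starts the pathway, was 12.67 to 14.15 (median 13.40) early and 12.91 to 13.62 (median 13.47) late, with all late RNAs inside the early range. Its change was -0.06 (SE 0.192, 95% interval -0.47 to 0.36). Mvk was dim and variable, at 8.03 to 9.94 early and 7.96 to 10.21 late, with a change of 0.53 (SE 0.373). Pmvk (phosphomevalonate kinase), Mvd (mevalonate diphosphate decarboxylase), Idi1 (isopentenyl diphosphate isomerase) and Fdps (farnesyl diphosphate synthase) had changes of -0.03, 0.03, 0.10 and 0.03. The group means of Fdps spanned 0.18 units over the 6 groups, the narrowest of these 6 genes.

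Of the enzymes that make squalene and lanosterol, Fdft1 (squalene synthase) and Sqle (squalene epoxidase) had changes of -0.14 (interval -0.36 to 0.09) and 0.05 (interval -0.31 to 0.42). Lss, lanosterol synthase, was 10.69 to 11.49 early and 10.33 to 11.29 late, with a change of -0.23 (SE 0.117, adjusted p = 0.325). The estimate for Lss was larger between the lines than between passages. In C2 it was 11.49, 11.24 and 11.28 early, 11.21, 11.26 and 10.90 attached, and 10.79, 10.90 and 11.29 detached. In D4 it was 10.69, 10.94 and 10.73 early, 10.55, 10.98 and 10.98 attached, and 10.33 and 10.45 detached. The lines did not overlap at early passage or in detached cells but did in attached cells. On MOE430A the D4 early and detached arrays were logged on a later day than the C2 arrays. The attached arrays of both lines shared a day. Line and day thus cannot be told apart in the states where the lines did not overlap. D4 minus C2 was -0.48 (SE 0.112, interval -0.72 to -0.24, adjusted p = 0.775). The other tested Lss probe set gave -0.32 (SE 0.219, adjusted p = 0.842). No member was called between the lines, and 0% of all probe sets were.

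Among the enzymes from lanosterol to cholesterol, Nsdhl, the sterol dehydrogenase that takes part in removing the C4 methyl groups, had the largest positive change. In C2 its values were 10.73, 10.74 and 10.24 early, 11.22, 11.41 and 11.47 attached, and 11.31, 11.60 and 11.06 detached. In D4 they were 11.05, 10.95 and 11.20 early, 10.93, 10.85 and 10.84 attached, and 11.32 and 11.42 detached. In C2 all 6 late RNAs were above all 3 early RNAs, while in D4 the detached RNAs lay above the early ones and the attached RNAs below them. Late minus early was 0.42 (1.34-fold, SE 0.114, interval 0.17 to 0.66, adjusted p = 0.0622). Detached minus early was 0.53 (1.44-fold, SE 0.137, adjusted p = 0.0428), which made Nsdhl the 1 called gene of the 32 in that comparison, where 2.23% of all probe sets were called. This call did not hold when single RNAs were left out: it was lost in 12 of 17 such fits, with adjusted p-values of 0.0332 to 0.158. Within the fluidics run that held detached and early RNAs of a line, 2 against 2, the difference was 0.60 in C2 and 0.38 in D4, and with the run as a term it was 0.49 (adjusted p = 0.127). On MOE430A such within-run differences leave out early replicate 3 of both lines and detached replicate 1 of C2. Nsdhl has 1 tested probe set.

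The rest of that stretch gave smaller or mixed values. Ebp, the sterol isomerase, was 10.62 to 10.96 early and 10.22 to 11.47 late, with 7 of 11 late RNAs above every early RNA and a change of 0.24 (SE 0.148, adjusted p = 0.41). Changes were -0.31 for Cyp51 (lanosterol demethylase), -0.14 for Tm7sf2 (a sterol C14 reductase), -0.18 for Msmo1 (the C4 methyl oxidase) and -0.32 for Hsd17b7 (the C3 ketoreductase). Sc5d (the C5 desaturase) and Dhcr7 (the last reductase of 1 branch) had changes of 0.02 and 0.03. Dhcr7 was the gene with the largest value for detached minus attached cells, at 0.53 (SE 0.177, adjusted p = 0.207). None of the 32 was called in that comparison, against 0.217% of all probe sets.

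None of the 4 regulators was called in the averaged comparison. Srebf2 was 11.64 to 12.11 early and 11.45 to 12.26 late, with a change of -0.10 (interval -0.39 to 0.18), and Srebf1 had a change of -0.04 (interval -0.35 to 0.28). The other Srebf2 probe set, nearly as bright, gave -0.31 (SE 0.152, adjusted p = 0.301), with -0.51 for attached minus early (adjusted p = 0.26), -0.05 in C2 and -0.57 in D4 (adjusted p = 0.195). Insig1, an SREBP target as well as a brake on the pathway, had a change of 0.05 (interval -0.47 to 0.57). These are levels of mRNA, and SREBP is controlled largely by cleavage of its protein, which the arrays do not measure.

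The brightest Scap probe set had changes of opposite sign in the lines, which the other probe set did not show. In C2 it was 10.52, 11.28 and 9.69 early, 9.53, 8.77 and 9.84 attached, and 9.57, 10.18 and 10.02 detached. In D4 it was 9.43, 9.49 and 9.95 early, 10.49, 10.28 and 9.80 attached, and 10.29 and 10.46 detached. Late and early values overlapped in both lines, through early replicate 3 in C2 and through attached replicate 3 in D4. Late minus early was -0.84 in C2 and 0.66 in D4, a difference of 1.5 (SE 0.455, interval 0.53 to 2.47, adjusted p = 0.535). Within runs, which leave out early replicate 3 of both lines, detached minus early was -0.80 in C2 and 0.91 in D4. Over all RNAs the early and detached means were 10.49 and 9.92 in C2, and 9.63 and 10.37 in D4. The late minus early value in C2 ran from -1.25 to -0.45 without single RNAs. The other Scap probe set, on MOE430B and about as bright, gave 0.09 (SE 0.531) in C2 and 0.17 (SE 0.553) in D4, a difference of 0.07 (SE 0.767). With so wide an SE, it cannot decide whether the lines differ. Its D4 value also cannot be told apart from the chip lot, which differed between early and late D4 RNAs on MOE430B. No member was called for a difference between lines, against 0.00329% of all probe sets.

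In fatty acid synthesis, Fasn, the fatty acid synthase, was 12.48, 12.60 and 12.11 early, 12.52, 12.32 and 12.50 attached, and 12.73, 12.64 and 12.71 detached in C2. In D4 it was 12.12, 12.19 and 11.96 early, 12.68, 12.63 and 12.80 attached, and 12.29 and 12.45 detached. All late D4 RNAs were above the early D4 RNAs, and in C2 the detached RNAs were above the early ones while the attached RNAs overlapped them. The change was 0.31 (1.24-fold, SE 0.100, adjusted p = 0.11). Me1, malic enzyme, which supplies NADPH, had the lowest change of the 32. In C2 it was 11.21, 11.33 and 11.21 early, 11.26, 11.11 and 11.05 attached, and 10.81, 10.54 and 10.81 detached. In D4 it was 11.67, 10.96 and 10.98 early, 10.73, 11.18 and 10.56 attached, and 10.42 and 10.81 detached. Detached RNAs lay below early RNAs in both lines and attached RNAs overlapped them. The change was -0.40 (1.32-fold lower, SE 0.137, adjusted p = 0.132) late minus early and -0.56 (SE 0.164, adjusted p = 0.0687) detached minus early. Within runs, detached minus early was -0.59 in C2 and -0.70 in D4, and the other Me1 probe set gave -0.68 (SE 0.219, adjusted p = 0.11) late minus early.

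Acly (ATP citrate lyase) and Acss2 (an acetyl-CoA synthetase), which make cytosolic acetyl-CoA, had changes of 0.13 (SE 0.108) and -0.11 (SE 0.180). Acaca, acetyl-CoA carboxylase, had 7 of 11 late RNAs above every early RNA and a change of 0.34 (SE 0.173, adjusted p = 0.512) on MOE430B, but -0.17 on its MOE430A probe set. On MOE430B the second chip lot held early RNAs alone, all 3 of D4 and replicate 2 of C2. In D4 the lot therefore cannot be told apart from passage for any probe set of that array. These include the brightest ones of Acaca, Fads1, Hsd17b7, Insig1 and Sc5d.

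The desaturases Scd1 and Scd2, which put the first double bond into saturated fatty acids, were higher in many late RNAs. Scd1 in C2 was 11.48, 10.53 and 11.38 early, 11.22, 11.92 and 11.90 attached, and 12.06, 12.22 and 12.01 detached. In D4 it was 11.42, 11.27 and 11.49 early, 11.42, 11.64 and 12.02 attached, and 11.63 and 12.02 detached. All detached RNAs and 9 of the 11 late RNAs were above every early RNA, and the other 2 were attached replicate 1 of each line. The change was 0.56 (1.48-fold, SE 0.167, interval 0.20 to 0.92, adjusted p = 0.0849), and detached minus early was 0.70 (1.62-fold, SE 0.200, adjusted p = 0.0635).

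The 5th percentile of signal on MOE430A was 109.3 for attached C2 replicate 1, against at most 37.6 elsewhere. Without that RNA, Scd1 was called for detached minus early, with an adjusted p of 0.0413, and it was not called in the other 16 of 17 fits that left out 1 RNA. Scd2 was 12.23 to 13.44 (median 12.94) early and 12.59 to 13.85 (median 13.45) late, with 6 of 11 late RNAs above every early RNA. Its change was 0.50 (1.41-fold, SE 0.195, adjusted p = 0.19). Within runs, detached minus early was 1.11 and 0.48 for Scd1 and 0.93 and 0.54 for Scd2, in C2 and D4. Over all C2 RNAs, Scd2 was 12.23 to 13.44 (mean 12.84) early and 13.39 to 13.50 (mean 13.44) detached, with overlap. The other probe sets of these genes gave smaller changes: 0.29 for Scd1, and 0.02 and 0.06 for Scd2. Changes were 0.08 for Elovl5 and -0.004 for Elovl6 (elongases), and -0.22 for Fads1 and 0.02 for Fads2, the desaturases of polyunsaturated fatty acids.

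**Figure D3:**
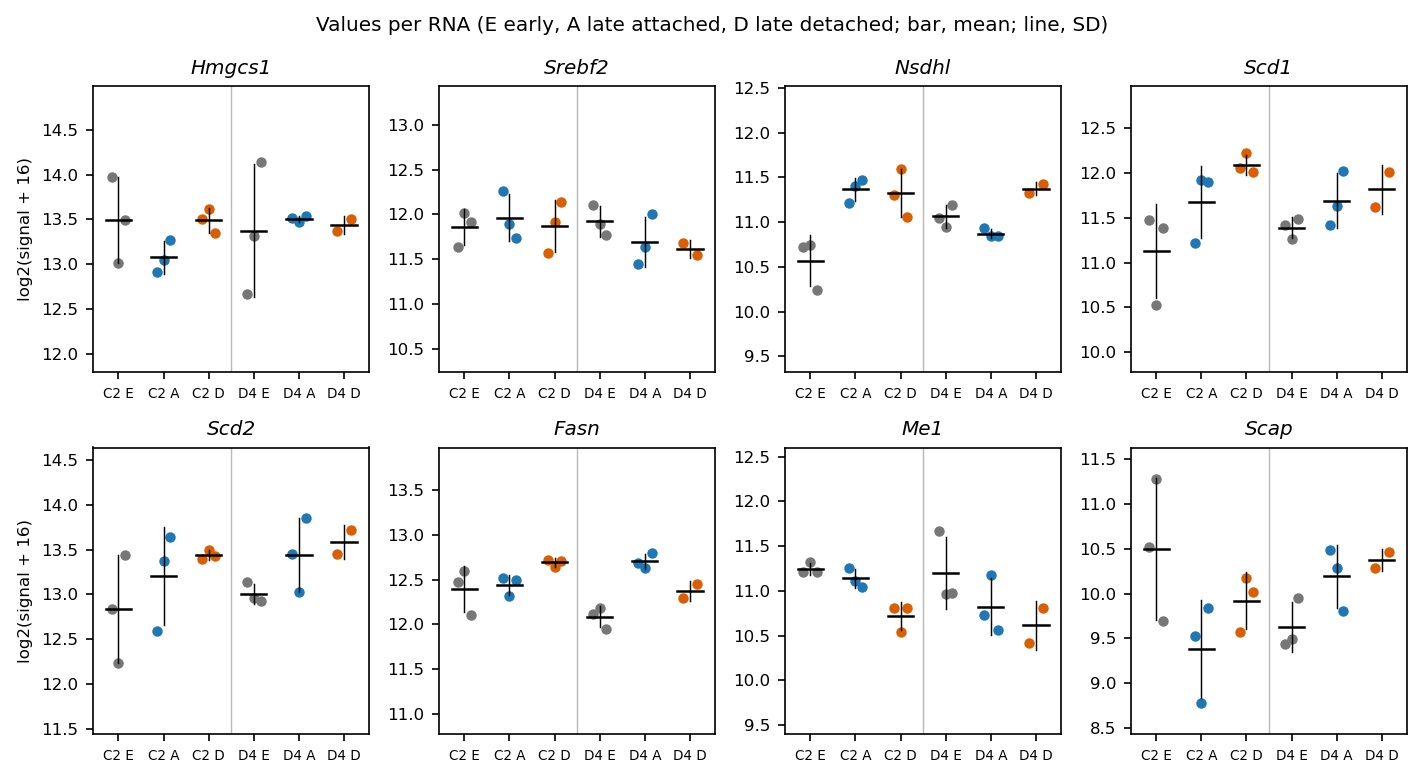
log2(signal + 16) per RNA (y axis, each panel spanning the same number of units) of 8 genes in early (E), late attached (A) and late detached (D) cells of C2 and D4; points are RNAs, bars group means and vertical lines SD. In both lines the detached means of Scd1, Scd2 and Nsdhl lie above the early means and those of Me1 below. The attached means lie on the same side of the early means, except for Nsdhl in D4. The late Scap means are lower than the early mean in C2 and higher in D4.

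In the detached against early comparison, 6 members had an unadjusted p under 0.05 (18.8%), those 5 and Lss, against 15.8% of all probe sets. Of the 27 genes measured on MOE430A, 6 (22.2%) had no overlap between detached and early RNAs of the same run, in the same direction in both lines: Nsdhl, Scd1, Scd2, Fasn and Ebp higher and Me1 lower. That share was 17.4% over all 14160 tested probe sets of that array, so both counts lie near the background. With the RNAs of other runs included, detached and early values of Scd2 and Ebp overlapped in C2. Attached cells gave no called member, against 0.0922% of all probe sets, with Scd1 highest at 0.42 and Hsd17b7 lowest at -0.37. No fluidics run held attached and early RNAs of the same line, so these differences were not measured within a run. In D4 the attached arrays were logged on an earlier day than the early ones, and day and state cannot be told apart there. Late minus early values include the attached cells and share this limit. All late comparisons share the same early RNAs. Feeder marker RNA differed most between detached and early cells, and its part in the members' values was not tested.

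The lines share no RNA and can be set side by side. None of the 32 was called within C2 or within D4, against 0.0362% and 0.53% of all probe sets. The sign of the change was the same in both lines for 18 of 32 genes (56.2%), against 58.7% of 14060 genes. Scd2 had changes of 0.48 in C2 and 0.51 in D4, and Me1 had -0.32 and -0.48. For Mvk they were 0.44 and 0.62, and the C2 value ran from -0.03 to 0.93 without single RNAs. Nsdhl had 0.77 in C2 (SE 0.159, adjusted p = 0.0783) and 0.06 in D4, a difference of -0.71 (SE 0.229, adjusted p = 0.535).

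**Figure D4:**
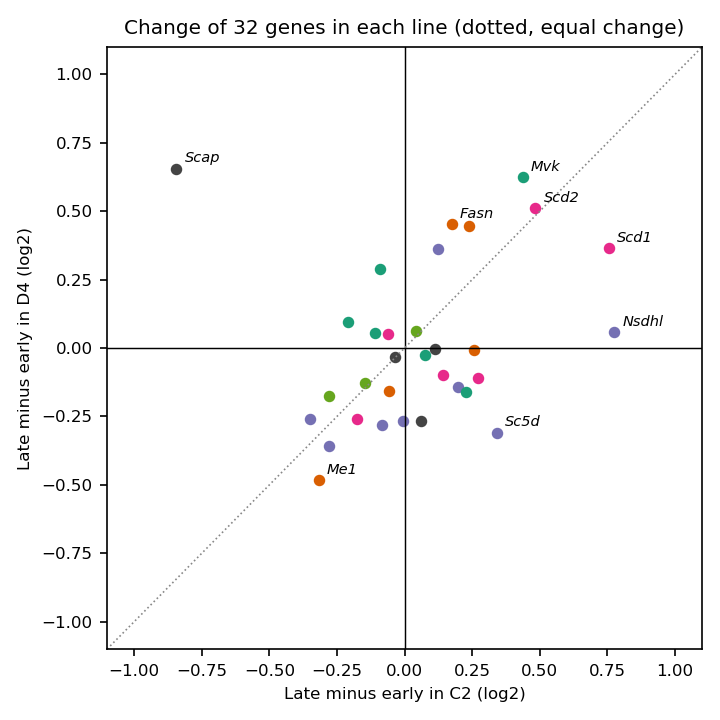
Late minus early passage in C2 (x axis) and D4 (y axis), both in log2 units, for each of the 32 genes, coloured by role as in the plot of changes with intervals; the dotted line marks equal change. Scap lies at -0.84 and 0.66, Nsdhl at 0.77 and 0.06, and Scd2 close to the line of equal change.

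Of the 20 genes with several tested probe sets, 13 had probe sets whose late minus early changes differed in sign. For Cyp51 they were -0.31 and 0.53, and for Hsd17b7 they ran from -0.51 to 0.25. Fdft1 had values from -0.74 to -0.03. Probe sets of a gene can bind different transcript ends, and the arrays alone do not say which value stands for the gene.

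Neighbouring lipid pathways were read from lists of other genes. No gene was called late against early among 24 tested genes of fatty acid precursors, activation and glycerolipid assembly (median change 0.04), 12 of the branches that leave mevalonate (0.18) or 13 of fatty acid oxidation (0.02). Among 14 tested genes of lipid uptake, export and storage (median -0.17), Plin2, the coat protein of lipid droplets, was the 1 called gene. Over all 14060 genes tested 1.86% were called, so 1 call over these lists lies near the background. Plin2 fell by 0.48 (SE 0.113, adjusted p = 0.0346), in C2 by 0.60 and in D4 by 0.35. That call was lost in 9 of 17 fits without a single RNA.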

How the data were processed

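Biotin-labelled RNA from 17 preparations was hybridised to MOE430A and MOE430B arrays. The deposited values are linear signal intensities, 1 for each probe set, which the submitters' processing notes ascribe to MAS5 (version not given in the sources used here). MAS5 combines perfect-match and mismatch probes and scales each array by itself, and the 2% trimmed mean was about the same on every array. The median signal of an array lay between 528.5 and 817.2 for MOE430A and between 763.0 and 988.8 for MOE430B. Replicates correlated at 0.866 to 0.957 and 0.684 to 0.818, and the number of arrays limits the precision. The 3' to 5' ratio of Actb was highest for attached D4 replicate 3, at 1.84 and 1.92, against at most 1.21 and 1.35 elsewhere. Its MOE430A array also has a different logged fluidics protocol.

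Intensities were taken as log2(signal + 16), which understates changes of dim probe sets. Probe sets brighter than the median of the array on 2 or more of 17 arrays were tested: 14160 on MOE430A and 16213 on MOE430B. In R 4.3.3, limma 3.58.1 was fitted to each array type with a mean for each of the 6 groups and a pooled spread, and p-values were adjusted by Benjamini-Hochberg within the array type. Calls need an adjusted p under 0.05. The fit was tested on simulated data. Genes were named from the platform annotation, updated by gene identifier, and each was represented by its brightest probe set on either array. Fluidics runs were inferred from the scanner information files, as arrays of a station logged within 30 minutes of each other. The alternatives were other offsets, filters, normalization, array weights, a trended spread, another choice of probe set, blocks for run and replicate number, and leaving out each RNA. All 32 members are named, and from the neighbouring pathway lists the called genes, at most 3 in each direction. The members and lists were chosen with earlier results of these data known. Genes singled out for values in each RNA were chosen after their values were seen.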

Additional observations from a re-analysis of the deposited data

How the results depend on the processing

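The averaged comparison stayed close to its threshold. For late against early passage, 0 members were called, 2 with the 75th percentile filter or with array weights (Nsdhl and Scd1), 1 with a trended spread (Scd1), and 0 to 1 without single RNAs (Scd1 without attached C2 replicate 1, Nsdhl without detached C2 replicate 3). For detached against early, the 1 call (Nsdhl) became 0 with no filter, quantile normalization, the fixed run block or the replicate block, 3 with the 75th percentile filter or a trended spread, 5 with array weights, and 0 to 2 without single RNAs. Within C2, 0 became 1 (Nsdhl) with the 75th percentile filter, array weights or a trended spread. The share of all probe sets called rose at the same settings. With the 75th percentile filter, array weights and a trended spread it was 4.14%, 2.48% and 2.53% for late against early (1.59% as reported), 5.71%, 5.96% and 3.34% for detached against early (2.23%), and 0.669%, 0.593% and 0.316% within C2 (0.0362%). The fixed run block was added after the run layout was seen. Of the comparisons averaged over the lines, it could be fitted on both array types for detached against early cells alone. Over all probe sets, the 482 calls of late against early ran from 248 with no filter to 767 with a trended spread, and from 194 to 623 without single RNAs. The 677 calls of detached against early ran from 244 with the fixed run block to 1810 with array weights, and from 277 to 844 without single RNAs.

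Same-numbered RNAs of different groups showed no shared deviations when pooled (median correlation -0.01, range -0.224 to 0.176, 40 pairs on MOE430A). The pool mixes lines and states, so it cannot exclude pairing between particular groups. The replicate block moved no other member count. Of 314 recomputed member changes, 10 turned sign, nearly all of genes with changes close to 0: Pmvk (0.007), Fdps (-0.006) and Insig1 (-0.009) with quantile normalization, Idi1 (-0.008) and Srebf1 (0.002) with array weights, Elovl6 (0.012) with the replicate block, and Sc5d (-0.002) with a random run block. With MOE430A probe sets preferred, Hsd17b7 (0.247), Acaca (-0.171) and Sc5d (-0.005) turned. Without single RNAs, changes crossed 0 for Hmgcs1 (-0.233 to 0.136), Pmvk (-0.089 to 0.027), Mvd (-0.025 to 0.093), Idi1 (-0.01 to 0.243), Fdps (-0.052 to 0.097), Sqle (-0.107 to 0.177), Sc5d (-0.095 to 0.086), Dhcr7 (-0.067 to 0.103), Srebf1 (-0.099 to 0.04), Insig1 (-0.136 to 0.24), Scap (-0.295 to 0.102), Elovl6 (-0.132 to 0.094) and Fads2 (-0.058 to 0.115). Nsdhl, Scd1, Scd2, Fasn and Me1 kept their direction in all of these fits. Plin2 lost its call with no filter (adjusted p = 0.092). The cause of these shifts was not tested.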

Other observations

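Within groups, variation from RNA to RNA was compared for pairs of these genes, without a test. Correlations of deviations from the group mean, over the 17 RNAs on MOE430A, had a median of 0.12 for 105 pairs of 15 sterol enzymes, 0.02 for 36 pairs of 9 fatty acid enzymes and 0.0 over all tested probe sets. Fdps and Msmo1 had the highest value among the sterol enzymes (0.83), followed by Mvk with Idi1 (0.78) and Hmgcs1 with Idi1 (0.75). The lowest value among sterol pairs was -0.62 and among fatty acid pairs -0.46. Scd1 and Scd2 had 0.81 and Scd1 and Elovl5 0.74. The named pairs were picked as the highest of each set, and the share of all probe set pairs with such values is not given. Both genes of a pair share the array, its scaling and the feeder RNA of each preparation, so these values are a description.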
